A study of Mus musculus with 10 samples.

Results

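The genes described here build the Golgi apparatus and the fusion machinery around it: golgins and other vesicle tethers, the GRASP stacking proteins, other proteins of Golgi membranes, the 8 subunits of the COG complex, SNAREs of the ER to Golgi step, and the ARF GTPases with their regulators. They were chosen by name, as symbols equal to the gene name in the deposited table, with earlier results of these data known. All 42 symbols were found among its 27665 genes, and all 42 passed the filter on low counts, which kept 15104 genes. The data are RNA sequencing libraries of isolated islets, the endocrine clusters of the pancreas, from male C57BL/6J mice, an inbred laboratory strain for which the labels name no transgene or deletion. Animals of 8 to 10 weeks received either a western diet, n = 5, or standard chow, n = 5, over 4 weeks, and each library came from 1 mouse. Every chow mouse was housed in cage 3, whereas 4 western diet mice came from cage 4 and 1 from cage 2. Diet and cage therefore cannot be told apart. Over these genes the cage 2 animal was the western diet mouse closest to the chow level and chow mouse 1 was the lowest of all, and counts are given with and without them.

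The title of the series names expansion of the Golgi during the early response of beta cells and the stress sensor IRE1α, and the diet comparison measured here bears on the transcripts of Golgi proteins. As background, secretory proteins such as proinsulin leave the endoplasmic reticulum (ER) in vesicles and cross the Golgi stack before they are packed into granules. A vesicle is first caught by a long tether on the target membrane and is then fused by SNARE proteins, which zip together in a complex of matching partners. ARF GTPases recruit the coats that form vesicles, with exchange factors that switch them on and GTPase-activating proteins that switch them off.

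Genes of the Golgi and its tethers were higher on western diet in 20 of 42 cases and lower in 0 of 42 (quasi-likelihood test of edgeR, adjusted p under 0.05 by Benjamini-Hochberg over all 15104 tested genes). Over all tested genes, 5.27% were called higher and 5.50% lower. The median log2 fold change of the 42 genes was 0.16, beside 0.0050 over all tested genes, and 39 of 42 fold changes were positive, beside 51.0% of all genes. Fold changes were small on the log2 scale, from -0.053 for Cog5, which was not called, to 0.58 for Golph3l. These Golgi genes are fairly abundant, with means from 4.52 to 8.99 on the log2 scale of CPM (counts scaled to the library total), and among all 6518 genes in that range 9.63% were called higher, 7.27% lower, and the median log2 fold change was 0.028. In whole islets, a change in the share of a cell type and a change in RNA per cell cannot be told apart.

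For 9 of the 42 genes each western diet mouse lay above each chow mouse, namely Golga1, Tmf1, Gorasp1, Tgoln1, Cog6, Cog8, Gosr2, Stx5a and Ykt6, beside 4.44% of all tested genes. The reverse held for 0 of 42, beside 4.42% of all tested genes. At an unadjusted p under 0.05, 28 of the 42 were higher and 0 lower, beside 4058 of all 15104 tested genes in either direction. By the authors' deposited table, 22 of 42 were higher and 0 lower at an adjusted p under 0.05, where that table calls 3.38% of its 27665 genes higher and 3.67% lower. The 22 comprised the 20 genes called here together with Yif1a (adjusted p = 0.0468) and Arf1 (adjusted p = 0.0356) in the authors' deposited table.

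Library totals lay between 16532518 and 23902681 counts. The beta cell list (Ins1, Ins2, Iapp, Slc2a2, Nkx6-1, Mafa and G6pc2) summed to 241400 to 276100 CPM on western diet and to 230200 to 266300 on chow, with 2 of 7 higher and 1 of 7 lower. Other cell types were present at lower levels. The 5 alpha cell genes summed to 9955 to 13750 and 10500 to 15620 CPM, with 1 of 5 higher, and the 3 delta and PP cell genes to 3540 to 4443 and 3034 to 5932 CPM, with 0 of 3 called. The 8 acinar genes summed to 664.3 to 4669 CPM on western diet and 552.3 to 2370 on chow, with 0 of 8 called. The 6 endothelial genes summed to 323.5 to 376.2 CPM on western diet and 378.2 to 417.1 on chow, with 1 of 6 lower. Of the tested duct genes 2 of 6 were lower (sums of 285.1 to 303.4 and 283.4 to 309.1 CPM) and of the stellate genes 1 of 5 was lower (25.96 to 43.78 and 29.1 to 125.6 CPM). No immune gene of 5 tested was called (91.6 to 180.3 and 89.96 to 129.5 CPM). Of all these lists, 0 genes were at 0 in every library. All 10 genes of a list of immediate early and heat shock genes were lower on western diet, beside 5.50% of all tested genes. Such genes respond to tissue handling among other stimuli. This list, like the others, was chosen with earlier results of these data known. The sum of its 10 genes was 8521 to 10520 CPM on western diet and 15140 to 18620 on chow, highest in chow mouse 1. The part of these lists in the Golgi results was not tested.

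**Figure D1:**
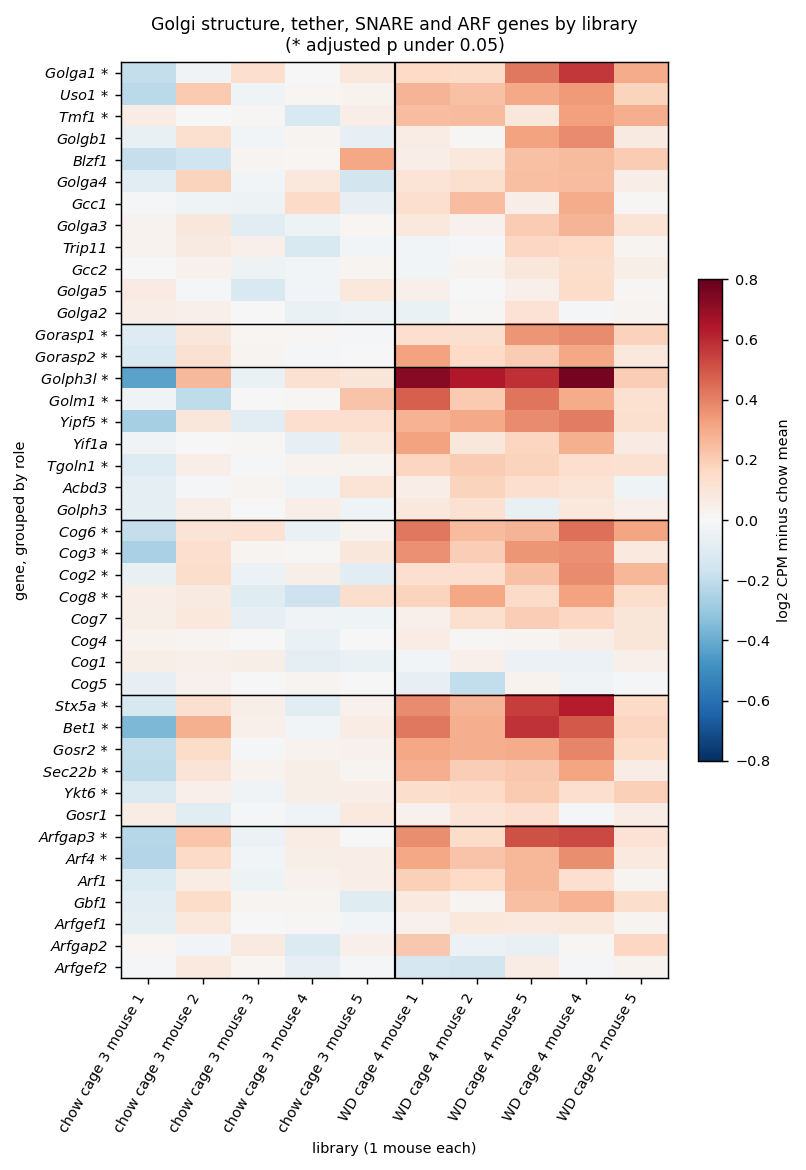
Log2 CPM of each of the 42 genes in each library, less the chow mean of that gene; columns are single mice, blocks are roles, and an asterisk marks an adjusted p under 0.05. Western diet cage 4 mouse 4 holds the highest value of 22 genes and chow mouse 1 the lowest of 21.

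The mice did not contribute equally. The median deviation of the 42 genes from their chow mean, on the log2 scale, was 0.14, 0.14, 0.28 and 0.21 in mice 1, 2, 4 and 5 of cage 4 and 0.096 in the mouse of cage 2. In chow mice 1 to 5 it was -0.075, 0.077, -0.0010, 0.0082 and 0.026. On this measure each western diet mouse lay above each chow mouse, with the cage 2 mouse nearest to chow and chow mouse 1 lowest. Summed over the 42 genes, 0.579% to 0.654% of the counts of a western diet library fell on them, and 0.515% to 0.564% of those of a chow library.

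The number of calls changed when single mice were left out. Leaving out western diet cage 4 mouse 1, 5 or 4 left 9, 7 and 6 of the 42 called higher, and leaving out chow mouse 1 or 3 left 8 and 8. In those 5 fits the share of all tested genes called higher was 3.65%, 3.10%, 2.61%, 2.47% and 2.81%, so calls fell across the table too. Without the cage 2 mouse 21 were called, that is within cage 4 against cage 3, beside 6.01% of all tested genes. Leaving out that mouse and chow mouse 1 together, which was chosen after seeing the data, left 16, beside 4.06% of all tested genes. In each of these fits 0 of 42 were lower, and 39 fold changes were positive. Uso1, Cog6 and Gosr2 were called in each of the 17 alternative fits. With mouse number as a replicate block only these and Golga1 were called, 4 of 42, beside 2.26% of all tested genes.

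**Figure D2:**
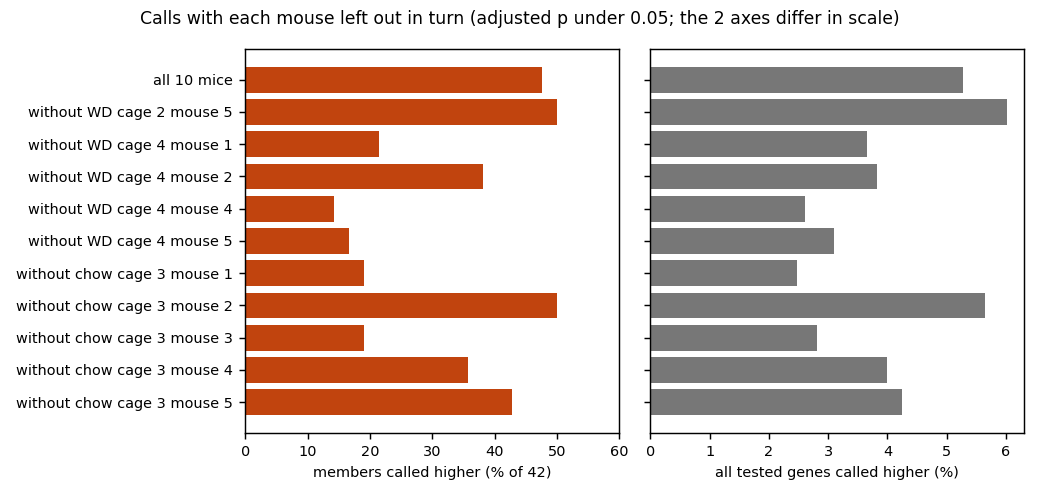
Share of the 42 Golgi genes (left, % of 42) and of all tested genes (right, %) called higher with all 10 mice and after removal of each single mouse; the axes differ in scale. The share of Golgi genes runs from 6 of 42 without western diet cage 4 mouse 4 to 21 of 42 without the cage 2 mouse or without chow mouse 2.

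Promoters were searched for the motifs through which the unfolded protein response and the Golgi stress response are known to act, because the series concerns IRE1α, whose RNase activity yields the transcription factor XBP1. RefSeq promoter windows of GRCm38.p6, from 250 bases before to 50 after a transcription start, were available for 37 of the 42 genes in 43 windows, and for 32851 windows in all. Golga4, Golgb1, Acbd3, Yipf5 and Arfgef1 had none. Both strands were searched. The unfolded protein response element core TGACGTGG was in 4 of 43 windows (9.30%), beside 0.676% of all windows, and belonged to Stx5a, Arf1 and Gbf1. The Golgi stress element core ACGTGGC was in 6 of 43 windows (14.0%), beside 2.58% of all windows, and belonged to Golga3, Uso1, Cog3, Stx5a and Arf1. These cores overlap by 6 bases, and in Stx5a and Arf1 the same sites hold both. Windows of Arf1 overlap and hold the same site, which both window counts therefore include more than once. By gene, 3 of 37 held the unfolded protein response core and 5 of 37 the Golgi stress core. Windows were not matched on base composition, and the shorter core CCACG was in 30 of 43 windows (69.8%), beside 32.8% of all. The ER stress response element (CCAAT, 9 bases of any kind, CCACG) and its second form (ATTGG, 1 base, CCACG) were in 0 of 43 windows, beside 0.119% and 0.0365% of all. The cAMP response element TGACGTCA was in the windows of Golph3 and Gosr2, 4.65% beside 1.79% of all.

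The sites are printed because they lie in genes that were called (Uso1, Cog3, Stx5a) as well as in genes that were not (Golga3, Arf1). Capitals mark the Golgi stress core in Uso1, Cog3 and Golga3 and the unfolded protein response core in Stx5a and Arf1, read 5′ to 3′ on the strand of the gene, from RefSeq on GRCm38.p6. Bases after the start are counted with the start as 1. Capitals that read GCCACGT or CCACGTCA hold the core on the other strand.
Uso1 site at chr5:92137861-92137907, plus strand, 57 to 51 bases before the start: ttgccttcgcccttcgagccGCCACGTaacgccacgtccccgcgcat
Uso1 site at chr5:92137871-92137917, plus strand, 47 to 41 bases before the start: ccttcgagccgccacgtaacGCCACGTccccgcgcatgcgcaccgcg
Cog3 site at chr14:75754589-75754635, minus strand, 122 to 116 bases before the start: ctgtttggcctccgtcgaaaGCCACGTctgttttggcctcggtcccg
Stx5a site at chr19:8741425-8741448, plus strand, bases 10 to 17 from the start: cgcagcagCCACGTCAccgagtta
Stx5a site at chr19:8741455-8741473, plus strand, bases 40 to 47 from the start: cgtctaggTGACGTGGcgg
Golga3 site at chr5:110176876-110176898, plus strand, bases 28 to 34 from the start: cttgcacaGCCACGTcctaccgg
Arf1 site at chr11:59228231-59228254, minus strand, bases 22 to 29 from the start that lies farther upstream: gcaggcgcTGACGTGGctgccgtc

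Of the called genes with a window, 3 of 19 held the Golgi stress core and 1 of 19 the unfolded protein response core. Of the genes not called, 2 of 18 held each. A match of letters describes the window and was not measured as binding. Both Uso1 sites lie within one stretch, 10 bases apart, and Stx5a carries its pair of sites just after the start in opposite orientations.

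Values per mouse are given below in CPM and in a fixed order: western diet cage 4 mice 1, 2, 4 and 5, then the cage 2 mouse, and chow mice 1 to 5. Fold changes are western diet over chow on the log2 scale with their standard error (SE), n = 5 per diet, and adjusted p-values are those of edgeR with Benjamini-Hochberg adjustment over all tested genes. Counts of called genes per role or list stand beside 5.27% of all tested genes called higher and 5.50% lower. Among genes of like level these shares were 9.63% and 7.27%.

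Among golgins and related coiled-coil tethers, 3 of 12 were higher and 0 lower, all 12 fold changes were positive, and their median was 0.15. The 3 were Tmf1, Uso1 and Golga1. Uso1 (GRCm38 chr5:92137938-92202798) has both promoter sites printed above and encodes the general tether that catches ER-derived vesicles at the cis side of the stack. It measured 358, 348, 376, 366 and 335 CPM on western diet and 255, 342, 289.6, 299 and 302 CPM on chow. The 5 western diet mice were close to one another, and 4 of them stood above each chow mouse, while the cage 2 mouse fell just short of chow mouse 2. The log2 fold change of Uso1 was 0.26 ± 0.063 (edgeR adjusted p = 0.0132). Tmf1 (chr6:97152997-97179122), a golgin that binds Rab6, was less abundant. It measured 57.6, 57.7, 60.9, 51.6 and 59.4 CPM on western diet and 50.5, 48.7, 48.9, 44.5 and 50.3 CPM on chow, so that the diets did not overlap although cage 4 mouse 5 came within a short distance of chow mouse 1. Its log2 fold change was 0.24 ± 0.056 (edgeR adjusted p = 0.0108).

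Golga1 (chr2:39016155-39065541) encodes a golgin of the trans-Golgi network, recruited by the GTPase Arl1 through a GRIP domain. It measured 45.2, 44.8, 59.9, 54.2 and 49.6 CPM on western diet and 35.4, 39.7, 44.4, 40.5 and 42.9 CPM on chow. The diets did not overlap, but mice 1 and 2 of cage 4 lay only just above chow mouse 3. The fold change was 0.32 ± 0.080 (edgeR adjusted p = 0.0177), and removal of western diet cage 4 mouse 4 or of chow mouse 1 ended the call (adjusted p = 0.0547 at most over all alternatives). The other 3 golgins with a GRIP domain, Golga4, Gcc1 and Gcc2, did not pass the test. Gcc1 measured 69.0, 74.7, 77.3, 65.1 and 63.2 CPM on western diet and 62.3, 61.3, 61.1, 70.0 and 60.1 CPM on chow, and Gcc2 measured 67.3, 69.7, 75.4, 72.8 and 70.6 CPM on western diet and 68.6, 70.1, 66.5, 67.5 and 69.4 CPM on chow. In both the diets overlapped, and chow mouse 4 stood apart from the other chow mice for Gcc1. Their fold changes were 0.15 ± 0.062 (edgeR adjusted p = 0.125) and 0.055 ± 0.047 (edgeR adjusted p = 0.483).

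Golga2, the cis-Golgi golgin that anchors GRASP proteins and binds Uso1, had the largest p-value of the golgins. It measured 145, 152, 149, 163 and 153 CPM on western diet and 157, 155, 151, 145 and 147 CPM on chow, and the diets lay across one another. Its fold change was 0.016 ± 0.046 (edgeR adjusted p = 0.870). The remaining golgins were Golgb1, Golga4, Blzf1, Golga3, Trip11 and Golga5, whose fold changes ran from 0.045 for Golga5 to 0.17 for Golgb1 with edgeR adjusted p-values of 0.0915 or more.

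Both GRASP genes, which encode proteins that link cisternae into stacks and ribbons, were higher. Gorasp1 (chr9:119925257-119937565), the partner of Golga2 at the cis side, measured 46.9, 46.6, 55.5, 54.6 and 48.6 CPM on western diet and 39.8, 45.4, 43.2, 43.0 and 42.3 CPM on chow. The diets did not overlap, with cage 4 mouse 2 only a little above chow mouse 2. Its fold change was 0.24 ± 0.062 (edgeR adjusted p = 0.0198). Exons of Gorasp1 share 32.1% of their bases with Wdr48 on the opposite strand, and with no statement on strand in the sources used, reads from the shared bases cannot be told apart. Gorasp2 (chr2:70661576-70712636), which acts in the medial stack, measured 275, 246, 273, 254 and 234 CPM on western diet and 203, 239.6, 224, 218 and 220.2 CPM on chow. The cage 2 mouse lay within the chow range and the other 4 lay above it. Gorasp2 changed by 0.22 ± 0.056 (edgeR adjusted p = 0.0196). Each of these calls was lost without western diet cage 4 mouse 4 and without chow mouse 1, and also without cage 4 mouse 5 for Gorasp1 and without cage 4 mouse 1 for Gorasp2.

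**Figure D3:**
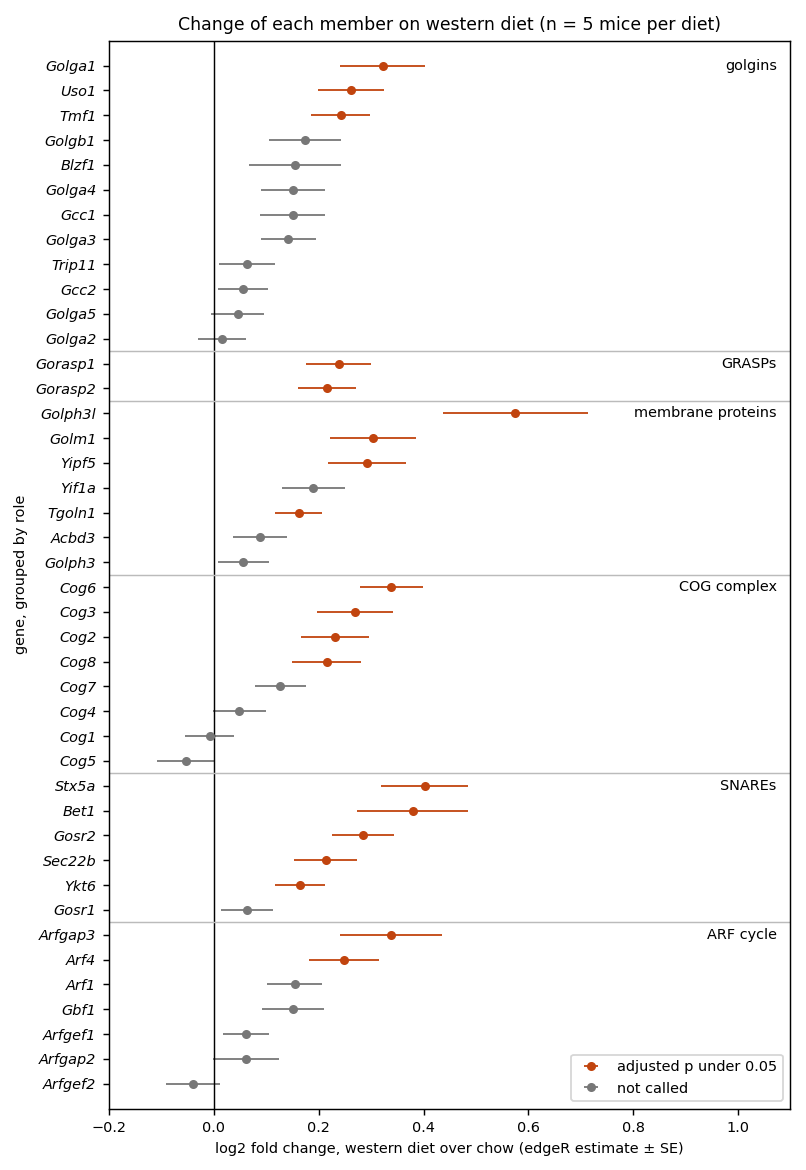
Log2 fold change of western diet over chow for each of the 42 genes (point, edgeR estimate; bar, ± SE; n = 5 mice per diet), grouped by role and coloured where the adjusted p is under 0.05. Of the 42 points 39 lie right of 0, with Golph3l farthest out at 0.58.

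Of 7 other membrane proteins of the stack 4 were higher, 0 lower, and the median log2 fold change was 0.19. Golph3l (chr3:95588934-95619247) showed the largest estimate of the 42 genes. It encodes the paralog of Golph3, a protein that binds phosphatidylinositol 4-phosphate on Golgi membranes and retains glycosyltransferases there. Golph3l measured 69.9, 65.9, 71.7, 63.5 and 48.4 CPM on western diet and 31.5, 50.6, 40.8, 45.9 and 45.2 CPM on chow. The 4 mice of cage 4 stood clear of chow, the cage 2 mouse lay inside the chow range, and chow mouse 1 was the lowest of all. Golph3l changed by 0.58 ± 0.14, or 49.0% (edgeR adjusted p = 0.0278). The call was lost when any one of the cage 4 mice, or chow mouse 3, was left out. It was lost too without the filter on low counts (edgeR adjusted p = 0.0705) and with mouse number as a replicate block (edgeR adjusted p = 0.0781, the highest over all alternatives). Golph3 itself measured 181, 185, 180.4, 163 and 175 CPM on western diet and 162, 176, 169.9, 177 and 166 CPM on chow, with overlap and a fold change of 0.056 ± 0.048 (edgeR adjusted p = 0.485). Exons of Golph3 share 13.8% of their bases with 1810049J17Rik on the opposite strand.

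Yipf5, a multispanning protein of ER to Golgi traffic, measured 80.5, 81.9, 88.3, 86.3 and 72.6 CPM on western diet and 55.3, 70.8, 62.4, 72.9 and 72.8 CPM on chow. The 4 mice of cage 4 exceeded each chow mouse and the cage 2 mouse did not, and the fold change was 0.29 ± 0.075 (edgeR adjusted p = 0.0207). Golm1, a type II membrane protein of the Golgi, measured 37.8, 31.5, 33.5, 36.6 and 29.6 CPM on western diet and 26.7, 23.6, 27.1, 27.4 and 31.8 CPM on chow. Chow mouse 5 lay above western diet cage 4 mouse 2 and the cage 2 mouse, and the fold change was 0.30 ± 0.082 (edgeR adjusted p = 0.0243). Exons of Golm1 share 29.3% of their bases with Naa35 on the opposite strand.

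Tgoln1 (chr6:72608432-72617000) encodes a cargo protein that cycles between the trans-Golgi network and the cell surface. It measured 542, 555, 529, 545 and 525 CPM on western diet and 449, 499, 478, 492 and 491 CPM on chow. Western diet mice varied little, and each lay above each chow mouse. The fold change was small, at 0.16 ± 0.044 (edgeR adjusted p = 0.0264). Calls for Yipf5, Golm1 and Tgoln1 were lost in 4, 7 and 7 of 17 alternatives, with an adjusted p of 0.0641, 0.0770 and 0.106 at most. Removal of western diet cage 4 mouse 5 or of chow mouse 3 ended each of these calls. So did removal of cage 4 mouse 4 for Yipf5, of cage 4 mouse 1 or 4 or chow mouse 1 or 2 for Golm1, and of cage 4 mouse 1 or 2 or chow mouse 1 for Tgoln1. Yif1a, a partner of the Yip family, had a fold change of 0.19 ± 0.060 (edgeR adjusted p = 0.0507), just above the threshold, and Acbd3, a Golgi scaffold, one of 0.088 ± 0.051 (edgeR adjusted p = 0.287).

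The COG complex tethers vesicles that return Golgi enzymes to earlier cisternae, and 4 of its 8 subunits were higher and 0 lower. The calls fell on both lobes, on 2 of 4 in lobe A (Cog2, Cog3) and 2 of 4 in lobe B (Cog6, Cog8). Cog6 (chr3:52981875-53017237) had the smallest adjusted p of the 42 genes. It measured 128, 114, 129.7, 116 and 119 CPM on western diet and 83.8, 103, 104, 92.1 and 97.4 CPM on chow. The diets did not overlap, and the lowest western diet mouse lay well above the highest chow mouse. Cog6 had a fold change of 0.34 ± 0.060 (edgeR adjusted p = 0.00211), with adjusted p-values of 0.00934 or less under each of the 17 alternatives.

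Cog3 (chr14:75702350-75754517), whose promoter site is printed above, measured 74.5, 66.5, 74.7, 73.9 and 61.0 CPM on western diet and 48.4, 63.6, 58.8, 58.2 and 61.7 CPM on chow. The cage 2 mouse fell inside the chow range, and chow mouse 1 stood apart at the low end. Cog3 changed by 0.27 ± 0.073 (edgeR adjusted p = 0.0264). Cog2 measured 35.9, 36.0, 42.7, 38.5 and 39.4 CPM on western diet and 31.4, 36.1, 31.8, 33.9 and 31.0 CPM on chow, where cage 4 mice 1 and 2 were level with chow mouse 2, and its fold change was 0.23 ± 0.065 (edgeR adjusted p = 0.0293). Cog8 had a fold change of 0.21 ± 0.066 (edgeR adjusted p = 0.0433) with no overlap, from 39.7 to 45.1 CPM on western diet against 32.2 to 39.7 on chow. The highest chow value of Cog8, 39.68, was only just under the lowest western diet value, 39.73. Cog8 exons share 28.2% of their bases with Pdf on the same strand. The calls of Cog2, Cog3 and Cog8 were lost in 7, 7 and 10 of the 17 alternatives, each of them without western diet cage 4 mouse 4 or 5 and without chow mouse 1 or 3. Leaving out chow mouse 5 also ended the call of Cog2. Leaving out cage 4 mouse 1 or chow mouse 4 ended those of Cog3 and Cog8, and cage 4 mouse 2 that of Cog8. The Cog8 call was lost too with limma-voom and at a mean of at least 5 CPM. Some lost calls came with a larger estimate, as for Cog8 without cage 4 mouse 1 (0.2268 beside 0.215 with all mice), and others with a smaller one.

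The other subunits did not pass the test. Cog1 measured 106, 111, 104, 105 and 111 CPM on western diet and 111, 111, 112, 102 and 104 CPM on chow, with the diets fully mixed and a fold change of -0.0083 ± 0.046 (edgeR adjusted p = 0.932). Cog5, Cog4 and Cog7 had fold changes of -0.053, 0.048 and 0.13, with edgeR adjusted p-values of 0.575, 0.579 and 0.0997. Exons of Cog1 and Cog5 share over 10% of their bases with Fam104a and Hbp1 on the opposite strand. Whether subunits of one complex differed from one another in their change was not tested.

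Among SNAREs 5 of 6 were higher and 0 lower, with a median log2 fold change of 0.25. Stx5a, Gosr2, Bet1 and Sec22b encode the 4 partners of the complex that fuses ER-derived vesicles with the cis-Golgi, and all 4 were higher. Stx5a (chr19:8741413-8756069) encodes syntaxin 5, the syntaxin of this step and of fusion within the stack. It measured 120.1, 112, 143, 136 and 103 CPM on western diet and 84.8, 101, 95.6, 87.3 and 94.9 CPM on chow. Mice 4 and 5 of cage 4 were far above chow, and the cage 2 mouse was only just above chow mouse 2. Stx5a changed by 0.40 ± 0.083, or 32.1% (edgeR adjusted p = 0.00797), and 16 of 17 alternatives kept the call. The pair of sites printed above belongs to this gene.

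Gosr2 (chr11:103676849-103697898), also called membrin, measured 206, 203, 217, 204 and 184 CPM on western diet and 145, 183, 164, 169 and 170.3 CPM on chow. The diets did not overlap, though the cage 2 mouse and chow mouse 2 differed by very little. The fold change was 0.28 ± 0.060 (edgeR adjusted p = 0.00646), with 0.0269 as the highest adjusted p over the alternatives. Sec22b, the SNARE on the vesicle side, measured 178, 167, 181, 169 and 152 CPM on western diet and 127, 156, 148, 151 and 148 CPM on chow. Chow mouse 1 was low and apart from the other chow mice, the cage 2 mouse lay among chow, and the fold change was 0.21 ± 0.060 (edgeR adjusted p = 0.0298). Without chow mouse 1 the Sec22b call was lost. It was lost too without western diet cage 4 mouse 1, 4 or 5 or chow mouse 3.

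Bet1 ranged from 50.5 to 67.1 CPM on western diet and from 35.01 to 54.6 on chow, with a fold change of 0.38 ± 0.11 (edgeR adjusted p = 0.0396). Ykt6 encodes a lipid-anchored SNARE of fusion within the stack and of late Golgi and endosomal steps. It ranged from 74.2 to 78.3 CPM on western diet and from 62.6 to 70.3 on chow without overlap. Its fold change was 0.16 ± 0.048 (edgeR adjusted p = 0.035). Bet1 and Ykt6 were the least stable SNARE calls, lost in 9 and 11 of 17 alternatives. The loss followed the removal of any one of the cage 4 mice or of chow mouse 3 or 4. For Bet1 it also followed that of chow mouse 5, and for Ykt6 that of chow mouse 1 or the cage 2 mouse, or of both. Each of these 2 calls was lost too without the filter on low counts and with mouse number as a replicate block. Gosr1, a SNARE of fusion within the stack, was the exception. It measured 68.1, 71.9, 66.3, 73.1 and 69.3 CPM on western diet and 69.3, 62.7, 65.9, 65.3 and 70.3 CPM on chow, the diets overlapped, and the fold change was 0.064 ± 0.050 (edgeR adjusted p = 0.438).

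**Figure D4:**
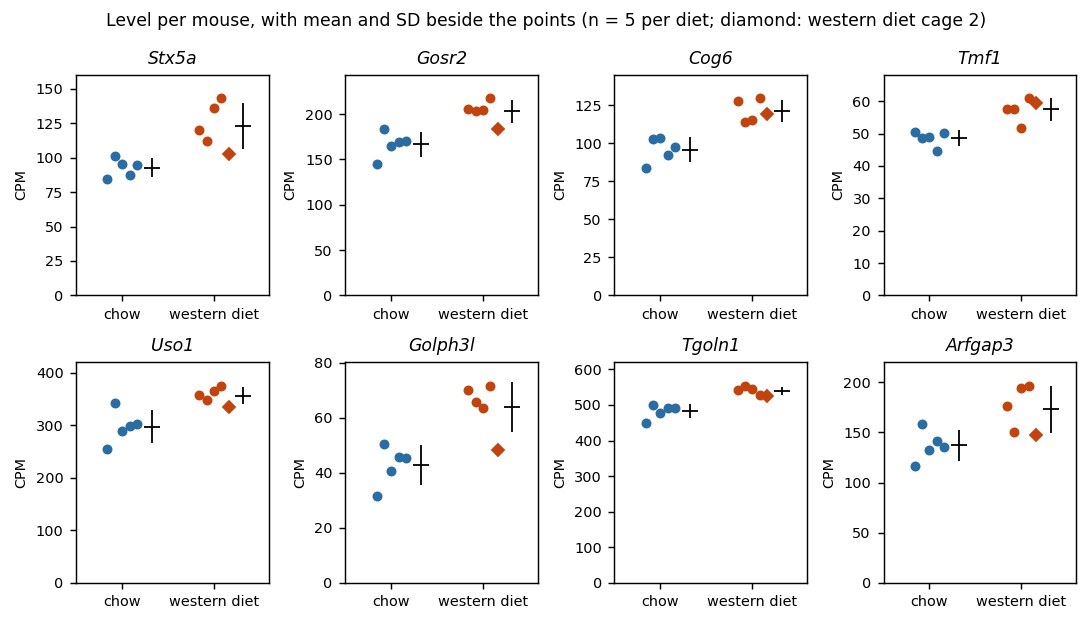
CPM of 8 of the genes in each mouse (points), with the mean and SD of each diet beside them (n = 5 per diet; diamond, the western diet mouse of cage 2); axes start at 0. The diets do not overlap for Stx5a, Gosr2, Cog6, Tmf1 and Tgoln1, and they overlap for Uso1, Golph3l and Arfgap3.

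In the ARF cycle 2 of 7 genes were higher and 0 lower, with a median log2 fold change of 0.15. Arf4 (chr14:26638074-26665084), a class II ARF of the early Golgi, measured 239.8, 227, 250.4, 233 and 205 CPM on western diet and 165, 216, 191, 200.4 and 201 CPM on chow. The cage 2 mouse lay below chow mouse 2, and chow mouse 1 was the lowest. The fold change was 0.25 ± 0.067 (edgeR adjusted p = 0.0254), and exons of Arf4 share 14.6% of their bases with Pde12 on the opposite strand. Arfgap3 (chr15:83299739-83350247), a GTPase-activating protein of COPI vesicles, measured 177, 151, 197, 194 and 148 CPM on western diet and 116, 159, 132, 142 and 136 CPM on chow. Cage 4 mouse 2 and the cage 2 mouse lay below chow mouse 2. Arfgap3 changed by 0.34 ± 0.10 (edgeR adjusted p = 0.0461). Both calls were lost without western diet cage 4 mouse 1, 4 or 5 and without chow mouse 1 or 3, and that of Arfgap3 also without chow mouse 4 or 5. The Arfgap3 call was lost too without the filter on low counts.

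Arf1, the ARF that recruits the COPI coat, was the most abundant of the 42 genes per length. It measured 412, 402, 396, 433 and 366 CPM on western diet and 334, 376, 351, 369 and 375 CPM on chow, so that 4 western diet mice exceeded each chow mouse, and its fold change of 0.15 ± 0.052 did not pass the test (edgeR adjusted p = 0.0642). Its GTPase-activating protein Arfgap2, whose exons share 33.4% of their bases with 1110051M20Rik, measured 50.3, 41.97, 43.6, 41.6 and 48.5 CPM on western diet and 43.8, 42.7, 45.5, 40.2 and 44.6 CPM on chow. The diets overlapped, with a fold change of 0.061 ± 0.063 (edgeR adjusted p = 0.575). None of the 3 large exchange factors was called. Gbf1, which acts at the cis side, had a fold change of 0.15 ± 0.059 (edgeR adjusted p = 0.105).

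The exchange factors of the trans-Golgi network are Arfgef1 and Arfgef2. Arfgef1 measured 237, 245, 245, 244 and 235 CPM on western diet and 219.7, 245, 232, 233 and 227 CPM on chow, with a fold change of 0.062 ± 0.044 (edgeR adjusted p = 0.397). Arfgef2 measured 146, 145, 160.1, 168 and 164 CPM on western diet and 159.6, 170.0, 162, 154 and 159 CPM on chow, with a fold change of -0.039 ± 0.051 (edgeR adjusted p = 0.669). For both the diets overlapped, and chow mouse 2 held the highest chow value.

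Related genes were set against each other within a library, since the ratio of their counts cancels the library scaling. In 0 of 6 pairs did the ratio pass the test between the diets after adjustment (two-sided exact permutation test of the mean log2 ratio, Benjamini-Hochberg over the 6 pairs, 5 mice against 5, smallest possible p 0.00794). The largest difference was that of Golph3l over Golph3, whose log2 ratio was -1.48 ± 0.22 with western diet against -2.01 ± 0.22 with chow (SD, n = 5; exact permutation p = 0.0159, adjusted p = 0.0952). It came to 0.53 ± 0.14 (SE), or a count ratio of 0.358 against 0.249. Without the western diet mouse of cage 2 it was 0.62 with an adjusted exact permutation p of 0.0476, the only alternative in which a pair passed. The log2 ratio of Gorasp1 over Gorasp2 was -2.35 ± 0.13 and -2.37 ± 0.024 (SD, n = 5; exact permutation p = 0.738, adjusted p = 0.738), a difference of 0.021 ± 0.060 (SE) whose sign turned without western diet cage 4 mouse 5 (-0.011).

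For the other pairs the difference in log2 ratio was 0.28 ± 0.15 for Arfgap3 over Arfgap2, 0.10 ± 0.050 for Arfgef1 over Arfgef2, 0.097 ± 0.053 for Arf4 over Arf1 and 0.093 ± 0.072 for Gcc1 over Gcc2 (SE). Their adjusted exact permutation p-values were 0.179, 0.167, 0.179 and 0.305. A member that passed the edgeR test beside a partner that did not, as with Golph3l and Golph3 or Arfgap3 and Arfgap2, was thus not shown to differ from it. Reads that match both genes of a pair may be divided or dropped by the counting, whose settings the labels do not state.

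**Figure D5:**
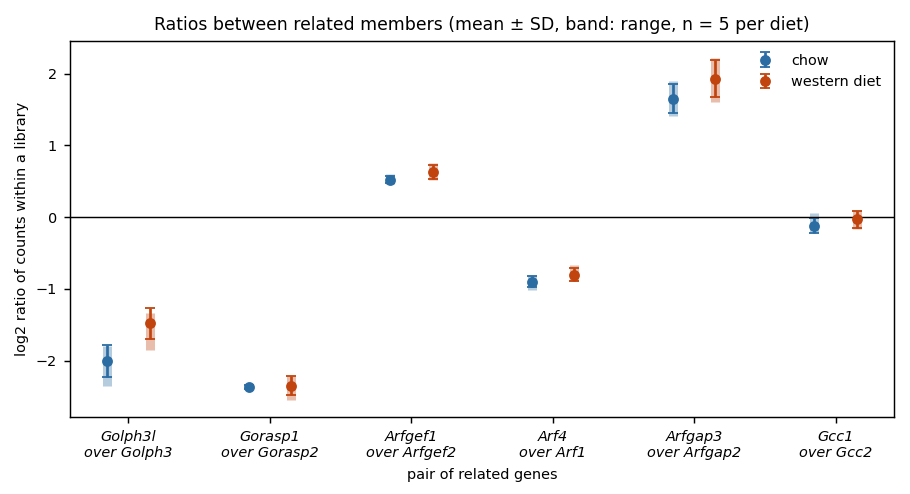
Log2 ratio of counts of 6 pairs of related genes within a library (point and bar, mean ± SD; band, range; n = 5 mice per diet). The ranges of the diets overlap for each pair, and the largest shift is that of Golph3l over Golph3, from -2.01 on chow to -1.48 on western diet.

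Levels can be compared between genes per length, in the FPKM of the authors' deposited table. On chow the order ran from Arf1 at 173 ± 8.79 FPKM (SD, n = 5), through Tgoln1 at 96.2 ± 4.06, Arf4 at 54.0 ± 5.32, Gorasp2 at 53.3 ± 3.23, Golph3 at 52.2 ± 2.05, Gosr2 at 51.0 ± 4.33 and Uso1 at 50.9 ± 5.39, down to Blzf1 at 4.08 ± 0.581 FPKM. Neighbours from Arf4 to Uso1 lie within their spread of each other. Calls were found at both ends of this order: Tgoln1 rose from 96.2 to 107 FPKM and Golm1 from 6.18 to 7.62 FPKM in the authors' deposited table.

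Genes beyond the 42 with a part in the same traffic were taken from lists of TRAPP and GARP tethers, other SNAREs, other ARF and ARL genes, Yip proteins, p24 cargo receptors, Golgi resident proteins and COPI coat subunits. All 79 were tested. Of these 10 (12.7%) were higher and 1 lower, beside 5.27% and 5.50% of all tested genes. Among all genes in the CPM range of the 42, 9.63% were called higher and 7.27% lower. Fold changes were positive in 65 of 79, beside 51% of all tested genes, and their median was 0.095, beside 0.0050. By the authors' deposited table, 13 of the 79 were higher and 2 lower, beside 3.38% and 3.67% of its 27665 genes. The count of 10 ranged from 2 to 16 with single mice left out. It was 2 without western diet cage 4 mouse 4 or without chow mouse 1, beside 2.61% and 2.47% of all tested genes. Without chow mouse 3 it was 3, beside 2.81%. It was 4 without cage 4 mouse 2 or chow mouse 5, beside 3.83% and 4.25%. Without cage 4 mouse 1 or 5 it was 5, beside 3.65% and 3.10%. Without chow mouse 2 it was 16, beside 5.65% of all tested genes.

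Arfip2, an arfaptin that binds Arl1 and ARF GTPases at the trans-Golgi network, had the smallest p-value of the 79. It measured 109, 103, 112, 117 and 100.5 CPM on western diet and 77.6, 87.9, 82.3, 81.7 and 88.8 CPM on chow, with no overlap and a fold change of 0.37 ± 0.054 (edgeR adjusted p = 0.00057). Arl1 itself measured 207, 205, 203, 209.9 and 192 CPM on western diet and 164, 192, 173, 188 and 179.8 CPM on chow, with a fold change of 0.18 ± 0.051 (edgeR adjusted p = 0.0292), the cage 2 mouse lying level with chow mouse 2. Tmem165, a cation transporter needed for Golgi glycosylation, measured 48.2, 55.1, 52.5, 52.1 and 50.2 CPM on western diet and 38.1, 43.6, 40.6, 43.5 and 43.1 CPM on chow. Each western diet mouse lay above each chow mouse, and the fold change was 0.30 ± 0.056 (edgeR adjusted p = 0.00285).

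Bet1l, the SNARE that joins Stx5a, Gosr1 and Ykt6 in the complex within the stack, was higher with a fold change of 0.24 ± 0.071 (edgeR adjusted p = 0.0378). Yipf2 and Tmed5, a Yip protein and a p24 cargo receptor, were higher by 0.24 and 0.25 on the log2 scale (edgeR adjusted p = 0.0194 and 0.0207). Of 14 TRAPP genes 1 (7.14%) was higher, beside 5.27% of all tested genes. It was Trappc10 (0.16 ± 0.046, edgeR adjusted p = 0.0343), and Trappc13 was not called (0.14 ± 0.048, edgeR adjusted p = 0.0614). Of 4 GARP genes 0 were called, with Vps54 at 0.13 ± 0.053 (edgeR adjusted p = 0.125). Of 9 COPI subunits 3 were higher: Copz1 by 0.21, Copb2 by 0.18 and Copa, named after its value was seen, by 0.15 (edgeR adjusted p = 0.0305, 0.0397 and 0.0484). Copg2, also named after its value was seen, went the other way at -0.17 ± 0.056. It was not called here (edgeR adjusted p = 0.0561) but was lower in the authors' deposited table (adjusted p = 0.0476). Stx18, Yipf3 and Vps53 were not called, at 0.19 ± 0.081, 0.15 ± 0.055 and 0.10 ± 0.054 (edgeR adjusted p = 0.133, 0.0926 and 0.264). Tmed9 was at 0.34 ± 0.11 with a wide spread on western diet and was not called either (edgeR adjusted p = 0.0729).

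The single lower gene was Bicd1, an adaptor of the dynein motor that moves Golgi vesicles along microtubules. It measured 51.3, 55.4, 56.8, 58.9 and 58.8 CPM on western diet and 67.2, 70.7, 63.5, 66.2 and 68.8 CPM on chow. Each western diet mouse lay below each chow mouse, and the fold change was -0.26 ± 0.052 (edgeR adjusted p = 0.00525).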

How the data were processed

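RNA sequencing counts of islets from 10 mice, 5 per diet, were analysed. The authors deposited read counts per gene as whole numbers, not normalized, per the file headers. Their FPKM per sample, their log2 fold changes and their p-values were deposited in the same table. Per the submitters' processing notes, the tools included STAR 2.5, HTSeq 2 and DESeq2, with mm10 and GRCm38 as builds. The sources used here do not state whether counting used strand. Another 10 columns of values per sample were not used.

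The test was that of edgeR 4.0.16 (R 4.3.3): filterByExpr with a minimum count of 10, TMM factors, a robust quasi-likelihood fit of diet with no covariate, and Benjamini-Hochberg adjustment over 15104 genes, called under 0.05. CPM use TMM-scaled library sizes. SE is the size of the log2 fold change over the root of F. Ratios of related genes used counts plus 0.5. Exon overlaps came from GENCODE M21, which held all 42 identifiers, 40 with the same coordinates. Of the 42 genes 21 shared exon bases with another gene, 8 of them over 10%. The tests were checked on simulated counts.

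The 42 genes, the further lists and the marker lists were chosen with earlier results of these data known. Values per mouse are given for the 3 genes with the smallest p and the 1 with the largest in each role, and for related pairs. Of the further genes up to 2 per list are named. Alternatives were RLE factors, no filter, a mean of at least 5 CPM, DESeq2 1.42.0, limma-voom (limma 3.58.1), mouse number as a block, each mouse left out, and a pseudocount of 5 in ratios. Leaving out both the cage 2 mouse and chow mouse 1 was chosen after seeing the data.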

Additional observations from a re-analysis of the deposited data

Results flagged for a closer look

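In 3 of 84 groups of 5 mice, 1 per gene and diet over the 42 genes, a single mouse lay far from the others by Dixon's test at the 95% level, where chance alone gives about 1 in 20. Golga5 measured 84.03 CPM in western diet cage 4 mouse 4 and 76.1 to 78.16 CPM in the other western diet mice. Gcc1 measured 70.0 CPM in chow mouse 4 and 60.09 to 62.31 CPM in the other chow mice. Sec22b measured 126.7 CPM in chow mouse 1 and 148.1 to 156.2 CPM in the other chow mice.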

How the results depend on the processing

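The count of 20 Golgi genes called higher was 20 with RLE factors, 16 without a filter, 19 at a mean of at least 5 CPM, 22 with DESeq2 and 19 with limma-voom, beside 4.85%, 2.72%, 6.62%, 3.39% and 4.73% of all tested genes, and 6 to 21 with single mice left out. With mouse number as a replicate block it was 4, beside 342 of all tested genes (2.26%). The labels give 2 western diet mice the number 5, and deviations of mice with the same number correlated at -0.129 to 0.0483, so the numbers were not taken to pair the mice. The count of lower genes was 0 in each alternative, and 0 were lower at an unadjusted p under 0.05 in each. The median log2 fold change of the 42 genes stayed between 0.14 and 0.19. Of the 20 calls 3 held in each alternative, and 18 of the 22 other genes were never called. The count of 10 further genes was 3 with the block, beside 2.26% of all tested genes. With single mice left out it was 2 to 16, beside 2.47% to 6.01% of all tested genes. The lower count of 1 was 2 with DESeq2 and at 5 CPM and 1 to 2 with single mice left out. The sign of 2 uncalled genes turned: Golga2 was -0.0017 at 5 CPM and -0.0086 to 0.034 with single mice left out, and Cog1 was 0.0061 with the block and -0.033 to 0.0030 with single mice left out. The ratio of Gorasp1 over Gorasp2 ran from -0.011 to 0.072 and that of Golph3l over Golph3 from 0.44 to 0.62, passing at 0.0476 without the cage 2 mouse. The cause of these changes was not tested. No ratio had a replicate block, since it came from an exact permutation test.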
